A study of Homo sapiens with 6 samples.

Results

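The transcripts examined here were IL7R, IL7 and TSLP, the receptor chain and the ligands of the interleukin-7 and TSLP axis, taken as the rows of the deposited expression table that carry these symbols. All 3 were found, among 937 genes in all. LX-2, an established human hepatic stellate cell line, was given TGF-β1 at 20 ng/mL for 24 h, and the cells were then kept for 24 h with albiflorin (ALB group) or with plain medium (TGF-β1 group). ALB is a monoterpene glycoside of peony root, and TGF-β1 drives stellate cells towards a matrix-producing state. Each group had 3 libraries, and both had received TGF-β1. The labels title the second group CON and also give the cell type as hepatocyte. The submitters' design text says that these control cells were given TGF-β1, whereas in the methods of the paper the control had none. The paper's results, however, describe the sequenced LX-2 cells as induced by TGF-β1, either with ALB or without it. Its supplement names the compared groups ALB and model. The values of the TGF-β1 group rest on these descriptions and the design text being right. No library of cells free of TGF-β1 was used here. The paper's text gives no ALB dose for the sequenced cells, and the model is a single cell line in culture. The paper speaks in general of independent experiments, but whether the 3 sequenced libraries of a group stem from separate cultures is not stated in the sources used here, and a p-value therefore reflects variation among these libraries that may be technical.

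Interleukin-7 and TSLP are small secreted cytokines that share a signalling chain. IL7R encodes the interleukin-7 receptor α chain, which pairs with the common γ chain to bind interleukin-7 and with the chain encoded by CRLF2 to bind TSLP. Both receptors signal through JAK kinases and STAT5. Interleukin-7 is made mainly by stromal cells and keeps lymphocytes alive, and TSLP is an alarm cytokine made mainly by epithelial and stromal cells that acts on dendritic cells and other immune cells. The question put to the data was whether the ligands and the receptor chain moved together after ALB.

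They did not. The receptor transcript was lower with ALB and both ligand transcripts were higher. The factors were alike at the estimated depths, but with TMM or DESeq2's own size factors the ligands' log2 fold changes (2.22 to 2.40) were larger in size than that of IL7R (-1.22 and -1.11). Both of these scalings take most genes of the table as unchanged, although the authors had selected all of them as changed. IL7R averaged 33.9 ± 6.66 FPKM in the ALB group and 117 ± 28.4 FPKM in the TGF-β1 group (mean ± SD, n = 3 libraries each). IL7 averaged 2.96 ± 0.649 FPKM with ALB and 0.908 ± 0.0577 FPKM without it. TSLP averaged 0.563 ± 0.102 FPKM with ALB and 0.172 ± 0.0539 FPKM without it. FPKM, the fragments counted per kilobase of transcript relative to the total of the library, allows levels to be compared between genes.

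IL7R and TSLP both lie on the plus strand of chromosome 5, IL7R from 35852695 to 35879603 and TSLP from 111070062 to 111078024 (GRCh38, GENCODE 29). A link between the shared chromosome and their opposite directions was not tested. The sequences around their annotated starts are given as a description. Each runs from 250 bases before the start to 50 bases after it (RefSeq, GRCh38.p14, plus strand). The RefSeq table lists 1 such window for IL7R, chr5:35856641-35856940, whose start lies inside the wider gene span of GENCODE, and 3 for TSLP, chr5:111069812-111070111, chr5:111071463-111071762 and chr5:111073124-111073423. Capitals mark matches to the motifs searched, and the letters were searched on both strands.
IL7R: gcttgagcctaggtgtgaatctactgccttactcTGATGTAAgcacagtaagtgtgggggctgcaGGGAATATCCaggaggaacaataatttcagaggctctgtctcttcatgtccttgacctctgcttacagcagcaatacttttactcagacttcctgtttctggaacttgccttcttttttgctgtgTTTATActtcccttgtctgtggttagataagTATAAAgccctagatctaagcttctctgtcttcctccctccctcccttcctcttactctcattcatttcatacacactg
TSLP, start at 111070062: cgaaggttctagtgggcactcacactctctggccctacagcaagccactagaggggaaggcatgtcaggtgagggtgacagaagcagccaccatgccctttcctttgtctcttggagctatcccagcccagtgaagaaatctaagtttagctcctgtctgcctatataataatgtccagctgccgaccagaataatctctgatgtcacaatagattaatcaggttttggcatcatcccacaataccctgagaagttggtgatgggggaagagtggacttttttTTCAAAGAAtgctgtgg
TSLP, start at 111071713: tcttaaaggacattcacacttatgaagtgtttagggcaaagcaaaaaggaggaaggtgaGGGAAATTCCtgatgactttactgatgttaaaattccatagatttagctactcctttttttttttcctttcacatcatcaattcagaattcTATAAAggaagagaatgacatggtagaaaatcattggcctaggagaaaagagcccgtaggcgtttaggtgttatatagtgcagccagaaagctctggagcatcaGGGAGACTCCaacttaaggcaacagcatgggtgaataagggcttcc
TSLP, start at 111073374: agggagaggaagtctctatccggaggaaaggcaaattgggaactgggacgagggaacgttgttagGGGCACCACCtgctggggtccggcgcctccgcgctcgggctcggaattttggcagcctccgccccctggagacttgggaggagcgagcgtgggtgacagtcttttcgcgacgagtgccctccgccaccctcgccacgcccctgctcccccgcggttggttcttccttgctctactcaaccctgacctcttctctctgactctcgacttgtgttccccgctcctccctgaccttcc

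The IL7R window held the TATA box letters TATAAA 29 bases before its start and again, on the other strand, 60 bases before it. Letters of this kind were in 11.5% of the 35116 windows of the RefSeq table. The second TSLP window held them 100 bases before its start, and the first and the third TSLP window held none. A loose form of the NF-κB motif, GGG and CC with any 5 bases between them, matched in the IL7R window and in the second and the third TSLP window, but it was in 58.7% of all windows. The IL7R window held TGATGNAA, a form of the C/EBP and ATF4 motif (3.62% of windows), and the first TSLP window held the STAT motif TTCNNNGAA 33 bases after its start (7.66% of windows). None of the 4 windows held the AP-1 motif TGANTCA, the ATF and CREB motif TGACGTCA, the TEAD motif GGAATG or the SMAD motif GTCTAGAC, which were in 7.71%, 1.85%, 14% and 0.202% of windows. These matches describe letters only, and binding was not measured.

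**Figure D1:**
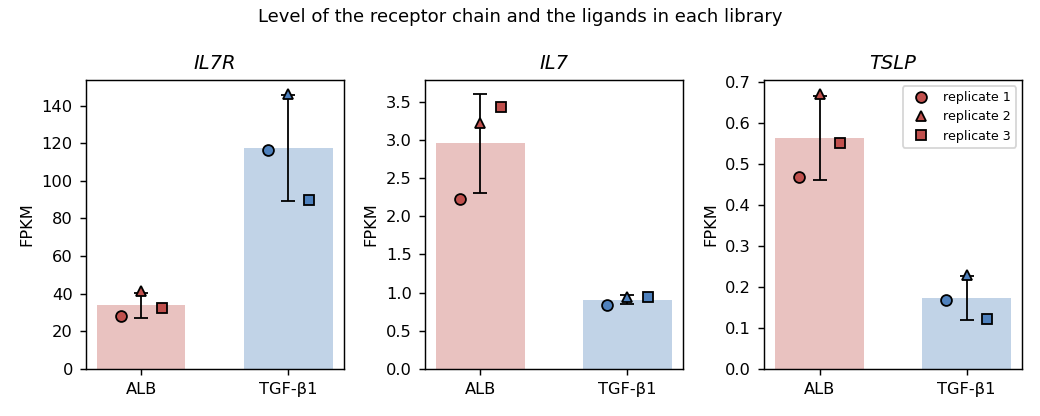
FPKM of IL7R, IL7 and TSLP in each library (points, 1 symbol per replicate number), with the mean (bar) and SD (error bar) of the 3 ALB libraries, left, and the 3 TGF-β1 libraries, right; each panel has its own linear scale from 0. The ALB libraries lie below the TGF-β1 libraries for IL7R (28.3 to 41.3 against 89.7 to 146 FPKM) and above them for both ligands.

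The receptor chain was the abundant member. IL7R had 28.3, 41.3 and 32.3 FPKM in ALB replicates 1 to 3, against 116, 146 and 89.7 FPKM in TGF-β1 replicates 1 to 3. Its counts were 4483, 6523 and 5919 with ALB, against 19751, 23202 and 13467 without it. The groups did not overlap, and the highest ALB library was below the lowest TGF-β1 library on both scales. By mean FPKM, IL7R stood 57th of the 937 genes in the ALB group and 27th in the TGF-β1 group. Tested on the counts with edgeR's quasi-likelihood test over all 937 genes, its log2 fold change, ALB over TGF-β1, was -1.80 (standard error 0.23, Benjamini-Hochberg adjusted p = 0.000133), a level 3.49-fold lower with ALB. It was the 151st lowest fold change of the table, so IL7R fell more than most lower genes but was far from the extremes.

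IL7, the ligand that binds IL7R with the common γ chain, was a low transcript. It had 2.22, 3.22 and 3.44 FPKM in the ALB libraries, against 0.841, 0.945 and 0.936 FPKM in the TGF-β1 libraries. The counts were 161, 232 and 243 with ALB, against 65, 67 and 54 without it, with no overlap. The log2 fold change was 1.70 (standard error 0.26, adjusted p = 0.000327, edgeR), a level 3.24-fold higher with ALB. This was the 106th highest fold change of the table.

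TSLP, the ligand that binds IL7R with the CRLF2 chain, was close to the limit of what the libraries could count. It had 41, 58 and 55 counts in the ALB libraries, against 17, 20 and 10 in the TGF-β1 libraries. The exact Poisson 95% interval of the lowest ALB count (29.4 to 55.6) stood apart from that of TGF-β1 replicate 3 (4.80 to 18.4) but met that of TGF-β1 replicate 2 (12.2 to 30.9), and these intervals cover counting error only. In FPKM it had 0.468, 0.671 and 0.551 with ALB, against 0.167, 0.228 and 0.121 without it, again with no overlap. Summed over the group, 154 fragments (interval 131 to 180) were counted with ALB and 47 (34.5 to 62.5) without it. The log2 fold change was 1.64 (standard error 0.34, adjusted p = 0.00162, edgeR), 3.11-fold higher with ALB and the 119th highest of the table.

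Thus 3 of 3 members passed the test, 1 lower and 2 higher with ALB. The table gives no contrast to this count, since it holds genes that the authors had already called on the same 6 libraries. In it 99.4% of genes passed edgeR's test, 42.5% as higher and 56.9% as lower, and the FPKM of the groups did not overlap for 95.5% of genes. The standard errors and adjusted p-values also rest on these selected genes alone, so they can look better than over all genes. Sizes of selected changes can be too large for the same reason. Passing the test is therefore not a result about these members, and what is described here is their levels, directions and ratios.

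**Figure D2:**
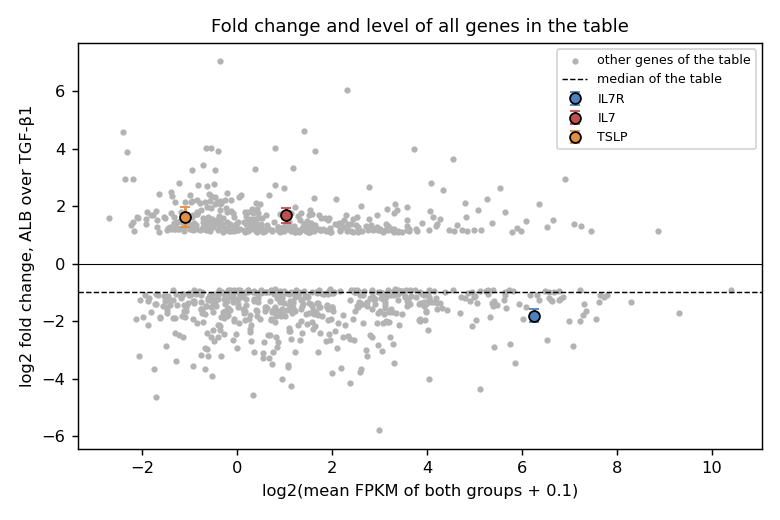
Log2 fold change, ALB over TGF-β1 (vertical), against log2 of the mean FPKM of both groups plus 0.1 (horizontal) for the 937 genes of the table, with the members in colour and error bars of 1 standard error; the empty band around 0 reflects the authors' selection of genes. IL7R lies among the abundant lower genes at -1.80, and IL7 and TSLP among low, higher genes at 1.70 and 1.64.

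The depth of a library cannot be read from a table of selected genes, so the balance between ligands and receptor was also taken as a count ratio inside each library, which depends on no depth. For each 1000 IL7R fragments there were 35.9, 35.6 and 41.1 IL7 fragments in the ALB libraries, against 3.29, 2.89 and 4.01 in the TGF-β1 libraries. The mean log2 ratio of IL7 over IL7R, with 0.5 added to each count, was 3.47 higher with ALB (standard error 0.15), an 11.1-fold shift. For TSLP there were 9.15, 8.89 and 9.29 fragments for each 1000 of IL7R with ALB, against 0.861, 0.862 and 0.743 without it. Here the log2 ratio was 3.44 higher with ALB (standard error 0.06), a 10.8-fold shift. That standard error reflects only the spread among the 6 libraries and overstates the precision. The counting error of TSLP is wider, with a Poisson 95% interval of 4.80 to 18.4 for the 10 counts of TGF-β1 replicate 3. The smallest difference between any ALB and any TGF-β1 library was 3.14 for IL7 and 3.34 for TSLP. A two-sided exact permutation test gave p = 0.1 for each, the smallest p that 3 libraries against 3 allow (adjusted p = 0.15 over the 3 ratios). The authors had selected the ligands as higher and IL7R as lower on the same libraries, so the separation of these ratios and their p follow from that selection, and the ratios are a description of size.

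The balance between the ligands themselves was not told apart between the groups. TSLP had 255, 250 and 226 fragments for each 1000 of IL7 with ALB, against 262, 299 and 185 without it. The log2 ratio differed by -0.028 (standard error 0.20, exact permutation p = 0.9, adjusted p = 0.9). Differences between single ALB and TGF-β1 libraries ran from -0.41 to 0.42. Without TGF-β1 replicate 3 the difference was -0.22 (exact permutation p = 0.1, the smallest possible there). The sign of the difference has no standing, as 4 of its 9 alternatives turned it.

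**Figure D3:**
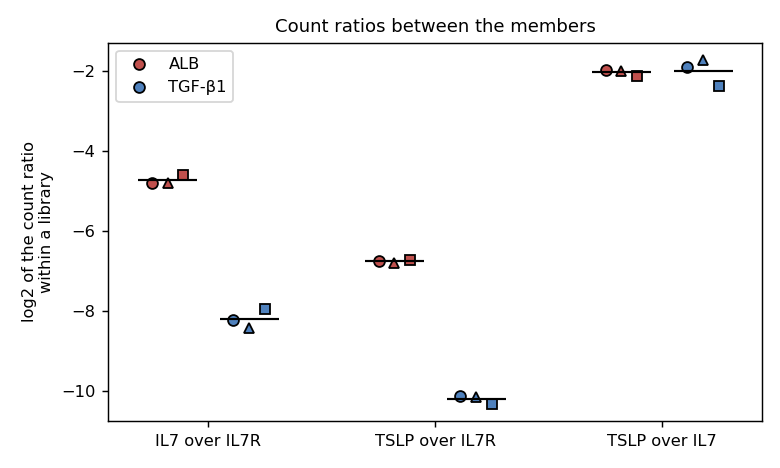
Log2 of the count ratio within a library (0.5 added to each count) for IL7 over IL7R, TSLP over IL7R and TSLP over IL7, with a point for each library (ALB left, TGF-β1 right of each pair, 1 symbol per replicate number) and a line at the group mean. Both ligand to receptor ratios are higher in all ALB libraries, by 3.47 and 3.44 on average, whereas the ratio of the ligands overlaps between the groups.

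The order of the levels was the same in all 6 libraries, IL7R above IL7 above TSLP. IL7R exceeded IL7 in FPKM by 9.40 to 12.8-fold in the ALB libraries, against 95.8 to 155-fold in the TGF-β1 libraries. IL7 exceeded TSLP by 4.74 to 6.24-fold with ALB, against 4.14 to 7.74-fold without it. The receptor transcript thus stayed the most abundant of the 3 with ALB, while its distance to the ligands was narrower. The ends 9.40, 95.8, 6.24 and 7.74 come from replicate 3 of each group. There IL7 was scaled with a shorter transcript length, given below, which raises its FPKM. By counts, too, these replicates had the most IL7 fragments for each 1000 of IL7R in their group, 41.1 and 4.01.

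Within a group, ligands and receptor deviated from their means with the same sign in 4 of 6 libraries. On the log2 scale of counts over depth, ALB replicate 1 was below its group mean for IL7R (-0.24), IL7 (-0.30) and TSLP (-0.24), and ALB replicate 2 was above it for all 3 (0.30, 0.23 and 0.26). TGF-β1 replicate 2 was the highest of its group for all 3 (0.35, 0.12 and 0.41), and TGF-β1 replicate 3 was the lowest (-0.36, -0.11 and -0.48). The median gene of the table deviated by between -0.11 and 0.13 across the 6 libraries. TSLP over IL7R had an SD of 0.033 log2 units among ALB libraries and 0.11 among TGF-β1 libraries. Counting error alone at 10 to 58 TSLP counts exceeds these SDs, so they do not show that TSLP and IL7R varied together. Poisson 95% intervals of IL7 overlapped between TGF-β1 replicates 2 (51.9 to 85.1) and 3 (40.6 to 70.5). They did not overlap between ALB replicates 1 (137 to 188) and 2 (203 to 264). The intervals of TSLP overlapped in both of these comparisons. With 3 libraries a group the deviations and SDs are descriptions, and the part of culture, RNA, library or counting in them was not tested.

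**Figure D4:**
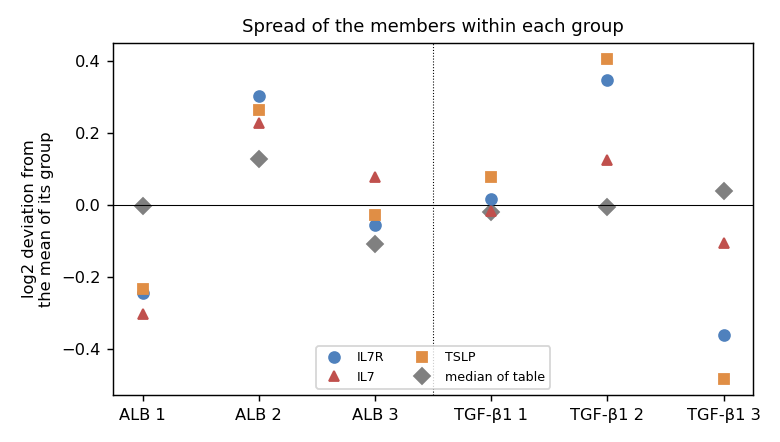
Log2 deviation of IL7R, IL7 and TSLP from the mean of their own group in each library, from counts over the estimated depth, with the median of the 937 genes as grey diamonds; ALB libraries are left and TGF-β1 libraries right of the dotted line. The 3 members lie on the same side of 0 in ALB replicates 1 and 2 and in TGF-β1 replicates 2 and 3, and their distance from 0 reaches -0.48 for TSLP in TGF-β1 replicate 3.

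The ratio of count to FPKM also shows the transcript length with which the authors scaled each gene. At the estimated depths it was 4407 to 4456 nucleotides for IL7R, close to the longest annotated transcript of 4626. For TSLP it was 2403 to 2669 nucleotides. GENCODE 29 lists TSLP transcripts of 2621, 2411 and 736 nucleotides, so the values lay near the longer transcripts and far from the short one. For IL7 the length was 1702 and 1708 nucleotides in replicate 3 of the ALB and the TGF-β1 group, against 1991 to 2027 in the other 4 libraries. The FPKM of IL7 in these replicates is therefore raised relative to its counts, and by counts alone TGF-β1 replicate 3 was the lowest library of its group for IL7, with 54. The difference between the groups did not depend on this, since it was tested on counts.

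Of 98 other genes in 5 lists around the axis, 4 were in the table, 3 higher and 1 lower with ALB. Whether 4 of 98 differs from the share of all genes that the table holds was not tested. Among all genes tested, 42.5% passed as higher and 56.9% as lower, and a difference of the 4 genes from these shares was not tested. The median log2 fold change was 1.43 for the 4 genes and -0.97 for the whole table. The authors' selection left a band around 0 empty, so each median mainly reflects which direction held more genes. None of the 19 partner chains and signalling genes was present, among them IL2RG, CRLF2, the JAK kinases, STAT5A, STAT5B and the SOCS inhibitors. The same held for the 11 other cytokines and receptors of the common γ chain family and for the 26 other class I cytokine receptor chains. Genes outside the table were not analysed here, so it cannot be said whether they were expressed or changed.

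The genes present were BCL2L11 and TSC22D3, from 16 genes of the interleukin-7 response and of IL7R regulation, and ATF3 and IL1A, from 26 genes that include inducers of TSLP. BCL2L11 encodes BIM, a protein that promotes apoptosis and that interleukin-7 holds down in lymphocytes. It was higher with ALB, at 5.19, 5.23 and 4.37 FPKM, against 1.61, 1.92 and 1.55 FPKM in the TGF-β1 libraries (edgeR log2 fold change 1.59 with a standard error of 0.17 and adjusted p = 7.64e-05). TSC22D3 encodes GILZ, a glucocorticoid-induced regulator, and glucocorticoids are known to raise IL7R in T cells. It was higher as well, at 7.82, 10.2 and 6.36 FPKM with ALB, against 2.90, 3.57 and 3.68 FPKM without it (edgeR log2 fold change 1.27 with a standard error of 0.23 and adjusted p = 0.000676). Neither gene overlapped between the groups, which held for 95.5% of all genes in the table.

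ATF3, a stress-induced transcription factor, had 16.5, 20.4 and 10.7 FPKM with ALB, against 3.51, 6.16 and 3.90 FPKM without it (edgeR log2 fold change 1.87 with a standard error of 0.29 and adjusted p = 0.000355). IL1A, an alarm cytokine that can induce TSLP in epithelial cells, was lower, at 7.86, 9.80 and 4.29 FPKM with ALB, against 14.2, 15.8 and 12.2 FPKM without it (edgeR log2 fold change -0.94 with a standard error of 0.28 and adjusted p = 0.00951). The call on IL1A was lost in edgeR when TMM set the library sizes (log2 fold change -0.38, adjusted p = 0.183) and in DESeq2 with size factors of its own (-0.26, adjusted p = 0.400), whereas the other 3 genes passed under both. Both scalings move the fold changes of this table of selected genes up, so the lost call does not show that IL1A was unchanged.

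The genes with the profile most like each member, out of 794 others with a symbol, were ranked by the root mean square difference of log2(FPKM + 0.1), centred on each gene's mean, over the 6 libraries. Nearest to IL7R were GJA1, which encodes the gap junction protein connexin 43 (difference 0.112), HMGA2, a chromatin protein of mesenchymal and tumour cells (0.120), and DOCK4, an activator of small GTPases (0.148). Their log2 fold changes were -1.67, -1.70 and -1.80. Near to IL7 were MROH6 (0.116) and BMP4, a ligand of the BMP family (0.147). Nearest to TSLP were ELAPOR2 (0.0620), ICAM5, an adhesion molecule (0.0911), and KCTD13 (0.0960). The added 0.1 FPKM compresses the profile of so low a gene, so that ICAM5 and KCTD13, with edgeR fold changes of 1.26 and 1.14, come near TSLP at 1.64. All of these genes had been selected for a difference between the same groups.

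IL7R is best known from lymphocytes and TSLP from epithelial cells, so markers of other cell types were looked up. Of 15 lymphocyte markers only CD79B was in the table, with 1.46 to 2.22 FPKM with ALB, against 3.59 to 4.09 FPKM without it. Of 8 myeloid markers only ITGAM was present, with 0.262 to 0.610 FPKM with ALB, against 0.142 to 0.199 FPKM without it. Of 8 epithelial markers 3 were present, KRT7, KRT8 and KRT18, with a summed level of 120 to 158 FPKM in the ALB libraries, against 284 to 291 FPKM in the TGF-β1 libraries. The 2 endothelial markers present of 5, PECAM1 and TEK, summed to 0.821 to 1.03 FPKM with ALB, against 1.64 to 2.12 FPKM without it, and none of 7 hepatocyte markers was present. No marker in the table was at 0 in every library, which the authors' selection of changed genes already required. At the estimated depths CD79B and the keratins were lower, as IL7R was, and their part in the results was not tested. With TMM in edgeR, CD79B (log2 fold change -0.38, adjusted p = 0.197), KRT7 (-0.36, adjusted p = 0.219), KRT8 (-0.33, adjusted p = 0.0792), PECAM1 (-0.65, adjusted p = 0.0691) and TEK (-0.37, adjusted p = 0.158) lost their calls, whereas KRT18 and IL7R kept theirs. The same 5 genes were lost with DESeq2's own size factors. Both scalings move the fold changes of this table of selected genes up, so the lost calls do not show that these genes were unchanged. In bulk RNA, fewer cells of a type and less RNA per cell cannot be told apart.

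For the cell line itself, 5 of 12 stellate cell and myofibroblast markers were in the table. FN1, which encodes fibronectin, averaged 299 ± 124 FPKM with ALB and 965 ± 85.6 FPKM without it, the 3rd and the 2nd highest mean of the table in these groups. COL3A1 was lower with ALB too and PDGFRA was higher, under TMM and DESeq2's own size factors as well. TAGLN was lower at the estimated depths but lost its call with TMM (log2 fold change -0.49, adjusted p = 0.156, edgeR) and in DESeq2 with size factors of its own (-0.41, adjusted p = 0.226). Both scalings move fold changes up, so this does not show that TAGLN was unchanged. COL1A2, a chain of type I collagen, was lower with ALB (edgeR log2 fold change -2.55, adjusted p = 0.00013). It kept its call with TMM (-1.93) and with DESeq2's own size factors (-1.84). Its level was low, 917th of 937 genes by mean FPKM with ALB and 693rd without it. The estimated depth was 35767995 to 41566215 fragments per ALB library and 33764316 to 38131882 fragments per TGF-β1 library, and the ranges overlapped.

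The size of each change, but not its direction, depended on how the libraries were scaled. When TMM was run on the table, which assumes that most of its genes keep their level although each had been called, the table's median fold change moved up by 0.61 log2 units. IL7R then had a log2 fold change of -1.22 (adjusted p = 0.000991, edgeR), IL7 of 2.29 and TSLP of 2.22. With DESeq2's own size factors, which rest on the same assumption, they were -1.11, 2.40 and 2.34, and the table moved up by 0.71. Both scalings were computed from genes that the authors had selected as changed, so neither gives the depth of the libraries. With TMM 731 of the 937 genes passed, 400 as higher and 331 as lower, against 398 and 533 at the estimated depths. On the log2(FPKM + 1) scale of limma, TSLP differed by only 0.41 (adjusted p = 0.000877) and IL7 by 1.04 (adjusted p = 0.000359), since 1 FPKM exceeds the level of TSLP in every library and that of IL7 in the TGF-β1 libraries.

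**Figure D5:**
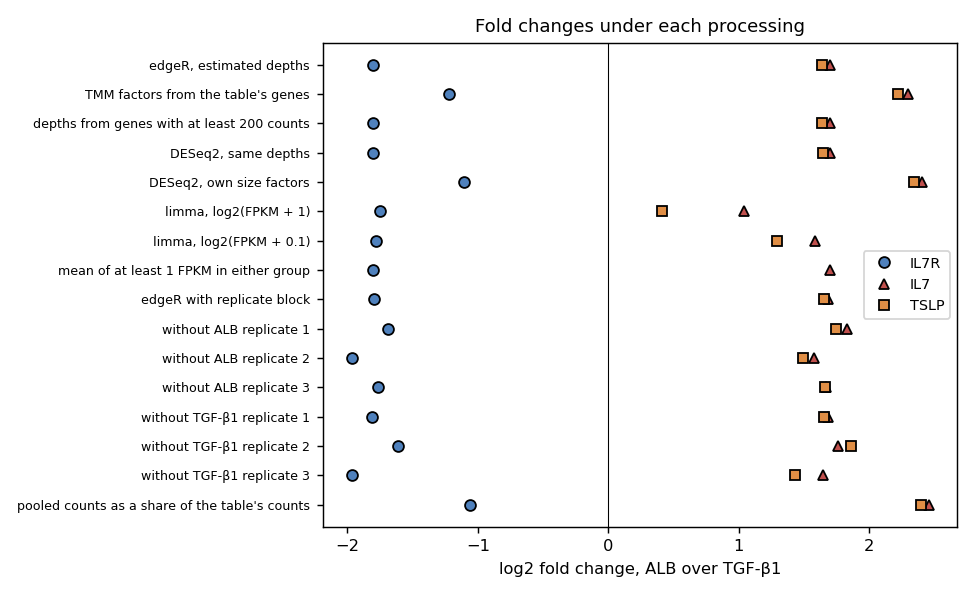
Log2 fold change, ALB over TGF-β1, of IL7R, IL7 and TSLP (horizontal) under each processing tried (rows); TSLP has no point where genes under a mean of 1 FPKM were left out. IL7R stays below 0, between -1.97 and -1.06, and both ligands stay above 0.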

How the data were processed

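Poly(A) RNA of 6 LX-2 libraries was sequenced on an Illumina NovaSeq platform. The authors deposited counts and FPKM of 937 genes kept after DESeq2 (fold change over 2, P under 0.01). Which aligner, counter, annotation and human build they used is not given in the sources used here. The submitters' processing notes name CASAVA 1.4 and mouse builds. Columns were matched to samples by initial and number, in the TGF-β1 group by number alone, and no mean or test depends on that number.

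Depth was estimated from the median count divided by FPKM across 565 genes (minimum 50 counts per library), scaled with 41 genes that have 1 annotated transcript. These depths were the library sizes for edgeR. DESeq2 1.42.0, limma 3.58.1 and edgeR 4.0.16 ran under R 4.3.3, and scipy 1.17.1 under Python 3.11.15, with Benjamini-Hochberg adjustment over 937 genes and a threshold of 0.05. The standard error is the size of the log2 fold change divided by the root of edgeR's F. The tests were tried on simulated data. Alternatives were other scalings, tools, pseudocounts, a filter at a mean of 1 FPKM, a replicate block and each library left out.

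Members and lists were chosen with earlier results of these data known. Genes named are the members, every listed gene and cell type marker found in the table that the text describes, and the 3 nearest profiles for each member, of which 1 is not reported here. Promoter windows are from RefSeq.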

Additional observations from a re-analysis of the deposited data

How the results depend on the processing

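IL7R and IL7 kept their direction and passed the test in all 14 tested alternatives, and TSLP in all 13 that kept it. Passing says little about these members, since the authors had selected every gene of the table on the same libraries. Of the 937 genes, 903 to 915 passed when a library was left out, and 678 with DESeq2's own size factors. Without each library in turn, log2 fold changes ran from -1.97 to -1.61 for IL7R, 1.58 to 1.83 for IL7 and 1.43 to 1.86 for TSLP. As a share of the table's pooled counts, chosen after seeing the data and with no test, they were -1.06, 2.45 and 2.39. The same-numbered libraries did not deviate together (correlations -0.09 to 0.07), and with the replicate block the values were -1.79, 1.68 and 1.66, all passing, with 925 genes called. Genes called as lower fell to 331 with TMM and 278 with DESeq2's own size factors, against 533, because both scalings move fold changes up. IL7 over IL7R ran from 3.36 to 3.59 and TSLP over IL7R from 3.38 to 3.52 over all alternatives. TSLP over IL7 turned sign as a ratio of FPKM (0.061), and without single libraries ran from -0.22 to 0.11. The counts of TSLP, 10 to 58 per library, limit its precision.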
